A study of Mus musculus with 4 samples.

Results

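The genes of the mouse histone clusters, whose names begin with Hist1h, Hist2h, Hist3h or Hist4h, were followed in poly(A)-enriched RNA of macrophages. The rule that picks them uses the symbol alone, found by matching each gene ID in the count files to GENCODE M21. Of 52550 gene entries, 70 were histone cluster genes: 6 of linker histone H1, 20 of H2A, 19 of H2B, 12 of H3 and 13 of H4. The Hist1 cluster on chromosome 13 held 56 of them, the Hist2 cluster on chromosome 3 held 10, the Hist3 genes on chromosome 11 numbered 3 and Hist4h4 on chromosome 6 stood alone.

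The study measured poly(A)-enriched RNA of macrophages grown from bone marrow of C57BL/6 mice aged 8 to 10 weeks. Cells of wild-type mice and of mice with miR-7 deficiency were each left unstimulated or given 100 ng/mL LPS for 12 hours. These 4 groups had 1 library each. LPS is the bacterial outer membrane component sensed by TLR4, and miR-7 is a microRNA. The labels do not say how the deficiency was made, which cells carry it or whether animals were pooled.

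Most genes of these clusters encode replication-dependent histones, which cells make in bulk while they copy their DNA. Their messages are unusual in having no introns and, in their main form, no poly(A) tail: the transcript is cut just after a short stem-loop, which is bound by the stem-loop binding protein SLBP. Some of these genes also give longer transcripts that end at an ordinary poly(A) signal downstream, and such polyadenylated histone RNAs are known from differentiated cells. Poly(A) selection favours them over the form that ends at the stem-loop. The values below are therefore levels in poly(A)-enriched RNA and not of total histone message. Counts per gene do not separate the longer transcripts from those that end at the stem-loop.

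The stem-loop sequences of members described below are printed here because this 3′ end is what sets these messages apart from ordinary ones. They are DNA letters of the M21 transcripts, 5′ to 3′, with the stem-loop match GGCNCTTTTCAGNGCC in capitals and 5 bases on either side.
Hist1h1c: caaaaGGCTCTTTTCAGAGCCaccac
Hist1h2bg: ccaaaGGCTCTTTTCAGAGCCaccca
Hist1h3d: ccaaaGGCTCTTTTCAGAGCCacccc
Hist2h2aa1: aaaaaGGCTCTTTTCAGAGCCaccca
Hist2h3c1: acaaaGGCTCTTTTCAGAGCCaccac
Hist3h2a: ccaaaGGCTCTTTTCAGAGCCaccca

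The 16 bases of the stem-loop were the same in these 6 genes, and only the flanks differed. The annotated transcript went on for 840 bases past the site in Hist1h1c, 155 in Hist1h2bg, 752 in Hist1h3d, 1167 in Hist2h3c1 and 1643 in Hist3h2a, against 35 in Hist2h2aa1. Over all members, 33 of 70 had the exact motif in an annotated transcript on the sense strand, and 16 had a transcript going on for more than 100 bases after it. The poly(A) signal AATAAA or ATTAAA lay in the last 50 bases of a transcript in 17 of 70. The exact letters were not found in the transcripts of Hist1h2bc, Hist2h2be or Hist1h4i, which says only that these annotated sequences do not hold them.

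Total counts per library ran from 33937823 to 42074624, and counts were found for 18156 to 18613 gene entries. All 8 macrophage markers were detected, with a summed level of 12750 to 22980 CPM (counts scaled by library size, here after TMM scaling, which also corrects for composition). These markers of other cells were low in sum: 8.06 to 11.1 CPM over 9 neutrophil genes (Ly6g and Elane at 0), 1.87 to 8.82 over 8 T cell genes (Cd3d and Trac at 0), 2.14 to 20.0 over 7 stromal genes and 0.153 to 7.36 over 6 mast cell genes (all but Cpa3 at 0). Dendritic cell genes, 7 in all with Flt3 at 0, summed to 28.8 and 37.3 CPM in the unstimulated and 161 and 328 CPM in the LPS libraries. Among them, and chosen after their values were seen, Ccr7 had 4.403, 148, 4.08 and 316 CPM and Clec9a 23.1, 4.34, 29.8 and 1.31 CPM (wild-type unstimulated, wild-type LPS, deficient unstimulated, deficient LPS). The part of such shifts in the results below was not tested. Of the 12730 genes that reached 1 CPM by total counts in at least 2 libraries, edgeR called 2297 higher and 2075 lower after LPS.

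Histone cluster genes made up a small part of this RNA. Over all 70, counts were 12511 in the wild-type unstimulated library, 7989 in wild-type LPS, 10558 in deficient unstimulated and 9470 in deficient LPS, or 0.0307%, 0.0204%, 0.0311% and 0.0225% of each library. Lists of 4 values below keep this order of libraries. Between 48 and 53 members had any count and 20 to 26 had at least 10. Only 12 members passed the filter of 1 CPM in at least 2 libraries, and 4 members (Hist1h1t, Hist1h2aa, Hist1h2ak and Hist2h2ab) had 0 counts in every library.

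A pair of genes, Hist1h1c and Hist1h2bc, held most of the signal. Together they gave 60.9% to 73% of the histone cluster counts of a library, the leading gene alone gave 35.3% to 47.4%, and the first 10 gave 94.2% to 96.5%. The 58 members that missed the filter summed to 8.21, 10.4, 9.86 and 10.3 CPM. Their highest single count was 62 and their median count summed over the 4 libraries was 13. The members with most counts among them were Hist1h2ae, which had 39, 34, 62 and 19, Hist1h2be, which had 37, 18, 53 and 40, and Hist2h3b, which had 34, 21, 55 and 38.

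The 12 members that passed had longer annotated transcripts than the rest. Their median longest transcript was 1088 bases against 498 bases in the 58 others, and 6 of 12 against 10 of 58 had a transcript running more than 100 bases past the stem-loop. These are descriptions of the annotation, and a longer transcript also collects more reads.

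**Figure D1:**
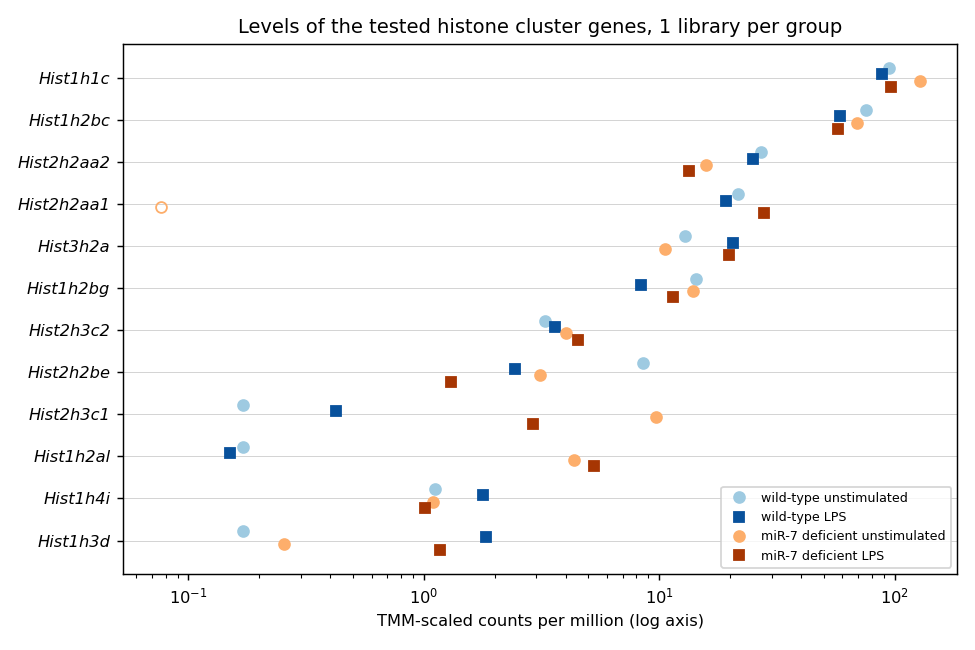
TMM-scaled CPM (log axis) of the 12 tested histone cluster genes, ordered by mean level, with 1 point for each library; the open circle marks Hist2h2aa1 in the miR-7 deficient unstimulated library, which had 0 counts and is drawn at the 3-count floor. Hist1h1c and Hist1h2bc lie highest in every library, and the points of Hist2h2aa1, Hist2h3c1 and Hist1h2al spread most widely.

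Linker histone H1 was represented almost wholly by Hist1h1c, which encodes the subtype H1.2, one of the linker histones that bind DNA where it enters and leaves the nucleosome. Hist1h1c lies at chr13:23738808-23740367 on the plus strand (GRCm38) as a single exon. Its levels were 94.4, 88.6, 128 and 96.7 CPM, highest in the deficient unstimulated library, with the other libraries close together. The fitted LPS effect was −0.25 ± 0.19 (log2 fold change ± SE over the 4 libraries, 2 pairs) with an adjusted p of 0.358 by edgeR's quasi-likelihood test. The fitted genotype effect was 0.28 ± 0.19 (edgeR adjusted p = 0.890). Neither passed the threshold of 0.05. Only 8.54% of its 50-base words occurred in another annotated gene, mostly in Hist1h1d and Hist1h1e. The class H1 as a whole summed to 94.8, 89.2, 129 and 98.2 CPM over its 6 members.

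The bases before the start site of Hist1h1c are printed as the promoter of the most abundant member. It is RefSeq sequence of build GRCm38.p6, plus strand, chr13:23738557-23738806, with CCAAT and the TATA-like words TATAAA and TATATA on either strand in capitals. CCAAT boxes and TATA boxes are common elements of histone gene promoters.
Hist1h1c promoter: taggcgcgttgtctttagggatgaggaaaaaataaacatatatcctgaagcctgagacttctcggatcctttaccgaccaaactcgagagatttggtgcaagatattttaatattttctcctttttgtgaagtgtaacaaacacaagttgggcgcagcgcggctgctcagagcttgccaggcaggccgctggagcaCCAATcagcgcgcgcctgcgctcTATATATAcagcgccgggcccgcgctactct

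Of the 70 members, 62 had a RefSeq promoter of 250 bases before to 50 bases after the start. CCAAT or its reverse complement was in 53 of the 62, against 37.4% of all 32544 promoters of that length. TATAAA was in 35 of the 62 against 13.6% of all, and TATATA in 17 of the 62 against 5.44%. The words TATAAA and TATATA can overlap, and a match is a match of letters only. AAACACA, the core of an element described upstream of H1 genes, was in 9 of the 62 against 7.20% of all promoters.

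H2B came mainly from Hist1h2bc, a gene of the core histone H2B at chr13:23684199-23692908, plus strand. It is 1 of 5 members with a spliced transcript in M21. Its levels were 75.6, 58.5, 68.9 and 57.2 CPM, somewhat lower in both LPS libraries than in both unstimulated ones. The fitted LPS effect of −0.32 ± 0.19 did not pass the edgeR test (adjusted p = 0.233). The genotype effect was −0.08 ± 0.19 (edgeR adjusted p = 0.993). Per length, the levels of Hist1h2bc and Hist1h1c overlapped, at 49.5 to 65.4 and 56.8 to 81.7 CPM per kilobase of exon. Other genes held 30.6% of the 50-base words of Hist1h2bc, most often Hist1h2bg (23.1%).

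Hist1h2bg, another H2B gene (chr13:23571396-23572013), had 14.3, 8.38, 13.9 and 11.5 CPM. Both LPS libraries were lower than both unstimulated ones, and the fitted effect of −0.52 ± 0.25 did not pass the edgeR test (adjusted p = 0.164). Of its 50-base words, 49.7% also occurred in other H2B genes, most of them in Hist1h2bc, so counts of these genes can mix.

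Hist2h2be fell after LPS. This gene, at chr3:96221119-96223738 on the plus strand, encodes an H2B variant known from olfactory neurons. Its counts were 399, 81, 122 and 49, or 8.53, 2.44, 3.11 and 1.31 CPM. Each LPS library was below its unstimulated counterpart, and the wild-type unstimulated library stood well above the other 3. The level after LPS was 3.49-fold lower in wild-type cells (log2 ratio −1.80, 95% counting interval −2.17 to −1.46) and 2.38-fold lower in deficient cells (−1.25, −1.76 to −0.76). The fitted LPS effect was −1.53 ± 0.39 with an adjusted p of 0.0265 by edgeR. The LPS effects in deficient and wild-type cells differed by 0.56 on the log2 scale (interval −0.03 to 1.14), an interval that includes 0.

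Hist2h2be was also lower in deficient than in wild-type cells, by 2.74-fold unstimulated (log2 ratio −1.46, interval −1.76 to −1.16) and 1.87-fold after LPS (−0.90, −1.44 to −0.37). This genotype difference did not pass the edgeR test (−1.19 ± 0.39, adjusted p = 0.480, unadjusted p = 0.0211). Its annotated exons overlap no other gene, and 0% of its 50-base words occur in another gene, and it is the only one of the 12 tested members of which both are true. In a model of LPS without genotype, Hist2h2be was not called.

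Hist3h2a rose after LPS. This H2A gene of the small cluster on chromosome 11 (chr11:58954685-58956830, plus strand) had 12.9, 20.5, 10.6 and 19.8 CPM. Both LPS libraries were above both unstimulated libraries. The ratio was 1.59-fold in wild-type and 1.87-fold in deficient cells, and the fitted effect was 0.79 ± 0.22 (edgeR adjusted p = 0.0370). The genotype effect was −0.17 ± 0.22 (edgeR adjusted p = 0.978). Its long transcript overlaps Trim17, a tripartite motif gene on the same strand, and an entry of miRNA type, Gm44313, on the other. Trim17 had only 3, 21, 13 and 17 counts. Gm44313 had 141, 204, 108 and 188 counts, highest in the same libraries as Hist3h2a. The part of these overlaps in the result was not tested. With all libraries scaled by total counts in place of TMM, the effect was 0.38 and did not pass (adjusted p = 0.219), so the call depends on that scaling. It was also lost with no filter on low counts (adjusted p = 0.0720).

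Hist1h3d rose after LPS from very low counts. It encodes a replication-dependent H3 and lies at chr13:23575763-23577011, plus strand, without overlap with another gene. Its counts were 8, 61, 10 and 44, or 0.171, 1.84, 0.255 and 1.18 CPM. Both LPS libraries lay well above both unstimulated libraries. The ratio was 10.8-fold in wild-type cells (log2 ratio 3.43, interval 2.36 to 4.70) and 4.61-fold in deficient cells (2.21, 1.19 to 3.36). The fitted effect was 2.79 ± 0.67 with an edgeR adjusted p of 0.0213, and with no filter on low counts it missed the threshold (adjusted p = 0.0624). Only the LPS libraries reached 1 CPM, so the filter admitted Hist1h3d through the group where it was high. Of its 50-base words, 24.8% occur in other H3 genes.

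The bases before the start sites of the 2 members that rose are printed from the same RefSeq build, plus strand, with the same words in capitals. That of Hist1h3d is chr13:23575513-23575762 and that of Hist3h2a is chr11:58954435-58954684.
Hist1h3d promoter: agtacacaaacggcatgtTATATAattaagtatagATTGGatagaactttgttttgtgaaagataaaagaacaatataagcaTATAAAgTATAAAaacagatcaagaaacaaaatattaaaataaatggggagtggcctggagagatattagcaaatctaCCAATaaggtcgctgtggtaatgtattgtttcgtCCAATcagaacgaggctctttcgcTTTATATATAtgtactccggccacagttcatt
Hist3h2a promoter: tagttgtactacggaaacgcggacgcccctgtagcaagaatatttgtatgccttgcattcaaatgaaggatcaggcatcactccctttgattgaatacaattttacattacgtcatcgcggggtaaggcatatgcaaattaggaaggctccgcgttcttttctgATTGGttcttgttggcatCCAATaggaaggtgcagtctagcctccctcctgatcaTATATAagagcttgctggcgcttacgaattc

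The Hist1h3d stretch holds 3 CCAAT matches and 3 each of TATAAA and TATATA. The Hist3h2a stretch holds 2 CCAAT matches, none of TATAAA and 1 of TATATA. Both thus held CCAAT, as did most members with a promoter entry.

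For LPS, edgeR thus called 2 of the 12 tested members higher (Hist1h3d and Hist3h2a), where 18% of all tested genes were called higher, and 1 lower (Hist2h2be), where 16.3% were. The share of members called was near that of all genes, and Hist1h3d had passed the filter through the LPS libraries alone. The median fitted effect of the 12 members was −0.02, against −0.04 over all 12730, with a range of −1.53 to 2.94 and 6 of 12 below 0. Because each group had 1 library, the 2 genotypes stood in for replicates of LPS and the 2 treatments for replicates of genotype. The p-values then measure how alike 2 pairs of libraries were, and not the spread among mice. In a model of LPS alone with any 1 library left out, none of these 3 members was called. With total-count scaling, where the median LPS ratio over all genes was displaced by −0.44 (wild type) and −0.38 (deficient), 1 member was called higher and 4 lower (Hist2h2be, Hist1h2bc, Hist1h1c and Hist1h2bg), while the split over all genes went from 2297 higher and 2075 lower to 1550 and 3840.

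Read within pairs of libraries, where a gene counted as beyond 2-fold if its whole 95% counting interval was, Hist1h3d was the only member higher after LPS in wild-type cells (14.8% of all genes were) and Hist2h2be the only one lower (13.3%). In deficient cells 2 members were higher, Hist1h3d and Hist2h2aa1 (12.5% of all genes), and Hist2h3c1 was lower (11.8%). Hist2h2be, with an interval reaching −0.76, did not qualify there. The intervals hold counting error alone, since each group had 1 library, and PCR copies counted as separate reads make them too narrow.

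**Figure D2:**
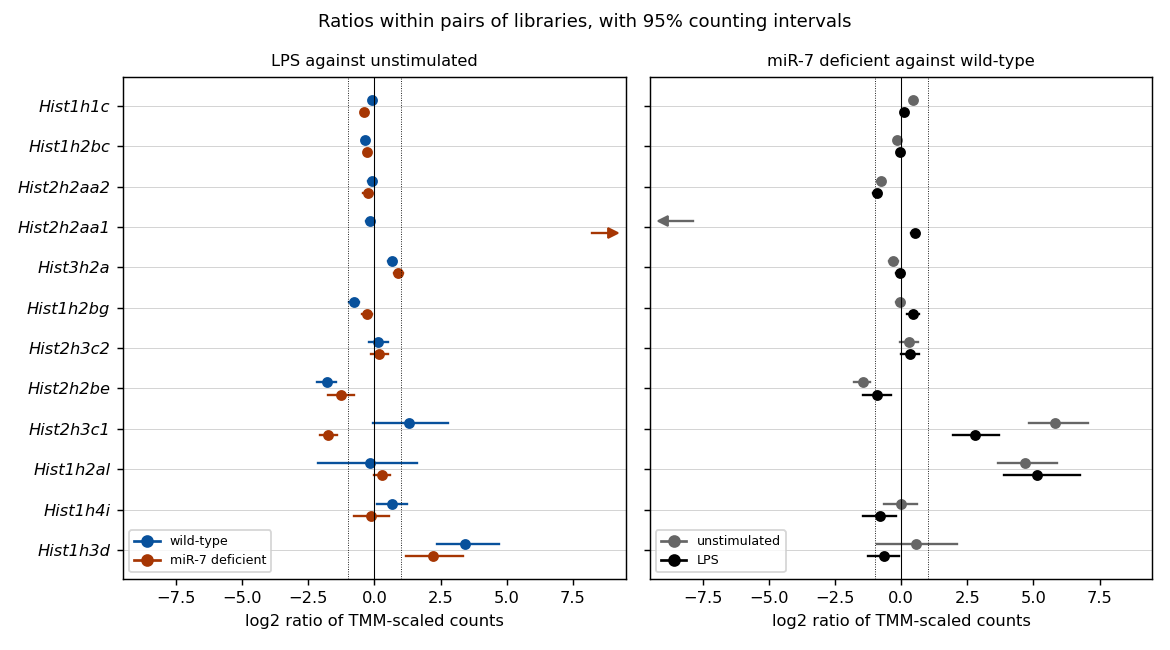
Log2 ratios of TMM-scaled counts for the 12 tested members, LPS against unstimulated in each genotype (left) and miR-7 deficient against wild-type in each treatment (right), with bars for 95% counting intervals and dotted lines at 2-fold; arrows stand for Hist2h2aa1 ratios that involve a count of 0 and start at the interval's finite bound. Hist1h3d lies right of 2-fold after LPS in both genotypes, Hist2h2be lies left of 0 in all 4 ratios, and Hist1h2al and Hist2h3c1 lie far right in deficient cells under both treatments.

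Hist1h2al was higher in both deficient libraries, and edgeR called it for genotype. It was the only member called higher, where 0.385% of all tested genes were. Its counts were 8, 5, 171 and 197, or 0.171, 0.151, 4.36 and 5.26 CPM. Only the deficient libraries reached 1 CPM, so Hist1h2al entered the test through the group where it was high. The call is therefore not independent of the filter. The deficient libraries did not overlap with the wild-type ones, at 25.5-fold (log2 ratio 4.67, interval 3.66 to 5.91) unstimulated and 34.9-fold (5.12, 3.88 to 6.76) after LPS. The fitted genotype effect was 4.85 ± 0.52 (edgeR adjusted p = 0.0244). The LPS effect was 0.13 ± 0.48 (edgeR adjusted p = 0.858). The genotype call was lost with no filter on low counts (adjusted p = 0.0586), in a model of genotype alone, and at 10 CPM or more or without overlapping genes, where Hist1h2al was not fitted.

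Hist1h2al is not an ordinary histone gene. M21 types it as a processed pseudogene, an intronless copy made from an RNA, at chr13:51202727-51203065 on the minus strand, apart from the other Hist1 genes. Over its 339 bases it differed from the transcript of Hist2h2aa2 at 2 positions, an identity of 99.4%. In the notation used here the base of Hist1h2al comes first, then its position in the Hist1h2al sequence counted from 1 at the 5′ end, then the base of Hist2h2aa2, and the differences were C120T and T216G. A stretch of 60 bases ending at the first of them is printed to show how alike the copies are, with the differing base in capitals.
Hist1h2al: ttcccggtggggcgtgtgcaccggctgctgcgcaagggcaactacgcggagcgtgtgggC
Hist2h2aa2: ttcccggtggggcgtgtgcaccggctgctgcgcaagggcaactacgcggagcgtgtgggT

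Of the 50-base words of Hist1h2al, 67.6% occur in another gene, and 65.5% occur in each of Hist2h2aa1 and Hist2h2aa2. A read that covers neither differing base fits all these loci equally well. An entry of miRNA type on the other strand inside it, Gm44341, had 1, 4, 54 and 51 counts and was likewise high in both deficient libraries. The part of reads from the Hist2h2aa genes in the Hist1h2al counts was not tested. For genotype, edgeR called 0 members lower (0.165% of all genes were), and DESeq2's Wald test also 0. In edgeR, 4 of 12 members had an unadjusted p under 0.05 in either direction, against 7.60% of all genes. They were Hist1h2al, Hist2h3c1, Hist2h2aa2 and Hist2h2be. Hist1h2al and Hist2h3c1 passed the filter through the deficient libraries alone, and Hist1h2al shares most of its 50-base words with Hist2h2aa2. The share of members is therefore not a result about the clusters. The median genotype effect was −0.12 over the 12 members and 0.02 over all genes.

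The duplicated part of the Hist2 cluster gave the most irregular values. Here a pair of H2A genes, Hist2h2aa1 (chr3:96245497-96246082, plus strand) and Hist2h2aa2 (chr3:96239749-96240276, minus strand), lies head to head, and each is followed on its own strand by an H3 gene, Hist2h3c1 (chr3:96246685-96248509, plus strand) and Hist2h3c2 (chr3:96238108-96239127, minus strand). The whole 528-base transcript of Hist2h2aa2 occurs without a mismatch within the 586 bases of Hist2h2aa1, and the H3 copies share an identical stretch of 666 bases. Every 50-base word of Hist2h2aa1, Hist2h2aa2 and Hist2h3c1 occurs in another gene, as do 63.5% of those of Hist2h3c2. For Hist2h2aa1 and Hist2h3c1 the other gene can be an overlapping entry, Gm20633 or Gm20634. Their copies share less: 89.2% of the words of Hist2h2aa1 occur in Hist2h2aa2, and 34.7% of those of Hist2h3c1 in Hist2h3c2.

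Hist2h2aa1 had 1013, 637, 0 and 1043 counts, or 21.7, 19.2, 0 and 27.9 CPM. Only the deficient unstimulated library lacked it. With 3 counts as the floor there, Hist2h2aa1 was at least 364-fold higher in deficient cells after LPS, and at least 283-fold lower in deficient than in wild-type unstimulated cells. The 95% counting intervals, which do not use that floor, reach down to 8.21 and up to −7.85 on the log2 scale. In wild-type cells the LPS ratio was −0.17 on the log2 scale. Neither the fitted LPS effect (edgeR adjusted p = 0.335) nor the genotype effect (adjusted p = 0.934) passed the test.

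Its copy Hist2h2aa2 had 27.0, 25.1, 15.8 and 13.3 CPM, lower in both deficient libraries than in both wild-type ones. The fitted genotype effect was −0.84 ± 0.21 and did not pass the edgeR test (adjusted p = 0.293). Summed over both copies, the level was 48.6, 44.3, 15.8 and 41.2 CPM. The sum was lowest in the deficient unstimulated library, at a log2 ratio of −1.62 to wild-type unstimulated (interval −1.75 to −1.49).

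Hist2h3c1 showed the opposite order in the same library. Its counts were 8, 14, 380 and 109, or 0.171, 0.422, 9.69 and 2.91 CPM, and both deficient libraries were above both wild-type ones. Only the deficient libraries reached 1 CPM, so Hist2h3c1 too entered the test through the group where it was high. The deficient level was 56.6-fold higher unstimulated (log2 ratio 5.82, interval 4.83 to 7.05) and 6.89-fold higher after LPS (2.79, 1.98 to 3.70). The genotype effect of 4.25 ± 0.81 missed the threshold in edgeR (adjusted p = 0.157) and passed it in DESeq2's Wald test (adjusted p = 0.000214). Hist2h3c2 was nearly level, at 3.27, 3.62, 4.002 and 4.54 CPM.

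Other entries at this place had counts of their own. Gm20634 contains all of Hist2h3c1 and overlaps Hist2h2aa1, and it had 361, 347, 0 and 215 counts, so the library with 0 counts for Hist2h2aa1 also had 0 here. Gm20633, on the strand opposite to Hist2h2aa1, had 1231, 795, 1343 and 1186, and Gm20632, opposite to Hist2h2aa2, had 1398, 818, 891 and 736. Summed over the 4 histone genes and these 3 entries, the level was 116, 108, 86.5 and 106 CPM, of which the 3 entries gave 63.9, 59.1, 56.9 and 57.1 CPM. Within that sum the entries differed: in the deficient unstimulated library Gm20633 had its highest count, 1343, and Gm20634 had 0. How reads with several positions or overlapping genes were assigned is not stated, and its part in these values was not tested.

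**Figure D3:**
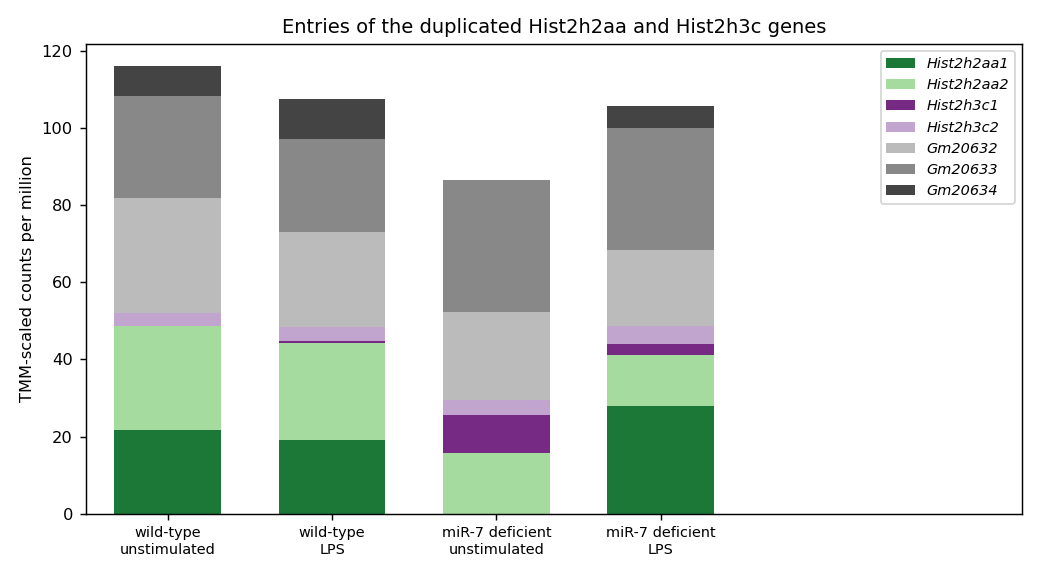
Stacked TMM-scaled CPM of the duplicated Hist2h2aa and Hist2h3c genes and of the 3 overlapping entries Gm20632, Gm20633 and Gm20634 in the 4 libraries, 1 library per bar. The miR-7 deficient unstimulated bar has no Hist2h2aa1 and no Gm20634 and the tallest Hist2h3c1 segment, while the full heights run from 86.5 to 116.

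Between genotypes within unstimulated cells, 2 members were higher in deficient cells beyond 2-fold (Hist2h3c1 and Hist1h2al), where 2.82% of all genes were, and 2 were lower (Hist2h2aa1 and Hist2h2be), where 1.41% were. Within LPS-treated cells, Hist2h3c1 and Hist1h2al were again higher (2.58% of all genes), and 0 members were lower (3.04%). Hist2h3c1 and Hist1h2al had passed the filter through the deficient libraries alone. The LPS comparison and the genotype comparison share libraries, and all but Hist2h2be of these members have 50-base words in common with other genes.

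The difference between the LPS effects of the genotypes lay beyond 2-fold for 1 member upward, Hist2h2aa1 (2.26% of all genes), and for 1 downward, Hist2h3c1 at −3.00 (interval −4.26 to −1.74, 3.82% of all genes). For the other 10 members the interval reached within 2-fold. It was −0.31 (−0.40 to −0.22) for Hist1h1c and 0.10 (−0.01 to 0.22) for Hist1h2bc, the members with most counts. With 1 library a group, this difference has no replicate check.

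The remaining tested member was Hist1h4i. This H4 gene at chr13:22040636-22041362 on the minus strand had 52, 59, 43 and 38 counts, or 1.11, 1.78, 1.10 and 1.02 CPM, highest in the wild-type LPS library. That library was 1.60-fold above wild-type unstimulated (log2 ratio 0.68, interval 0.12 to 1.25), and deficient LPS was 1.75-fold below it (−0.81, −1.44 to −0.20). Its LPS effect of 0.29 ± 0.53 did not pass the edgeR test (adjusted p = 0.706). It was the only H4 gene above the filter, and the 13 H4 genes together had 2.80, 3.98, 2.47 and 3.31 CPM.

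Summed over all 70 members, the level was 267, 241, 269 and 253 CPM. The LPS ratio was −0.15 on the log2 scale in wild-type cells (counting interval −0.19 to −0.11) and −0.09 in deficient cells (−0.13 to −0.05). With total counts in place of TMM they were −0.59 and −0.47, so the scaling moved them far past these intervals. The genotype ratio was 0.01 unstimulated (−0.03 to 0.05) and 0.07 after LPS (0.03 to 0.11). In RNA of a whole culture, fewer cells making histone RNA and less of it per cell cannot be told apart.

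The classes differed. H2B summed to 101, 72.9, 89.2 and 72.7 CPM, lower in both LPS libraries (log2 ratios −0.48 and −0.29). H2A summed to 63.9, 67.9, 33.0 and 68.7 CPM, and its low value in the deficient unstimulated library came with the 0 count of Hist2h2aa1. Without the Hist2h2aa copies, the other 18 H2A genes had 15.3, 23.5, 17.2 and 27.5 CPM, higher in both LPS libraries (log2 ratios 0.62 and 0.68), of which Hist3h2a made up most. H3 summed to 4.53, 7.03, 15.8 and 9.93 CPM with Hist2h3c1, and to 1.09, 2.99, 2.07 and 2.48 CPM without the Hist2h3c copies. Without Hist1h1c, 2 of the 4 ratios of the whole sum turned: the LPS ratio in deficient cells was 0.14 and the genotype ratio in unstimulated cells −0.29. The other 2 kept their sign, at −0.18 for LPS in wild-type cells and 0.04 for genotype after LPS.

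**Figure D4:**
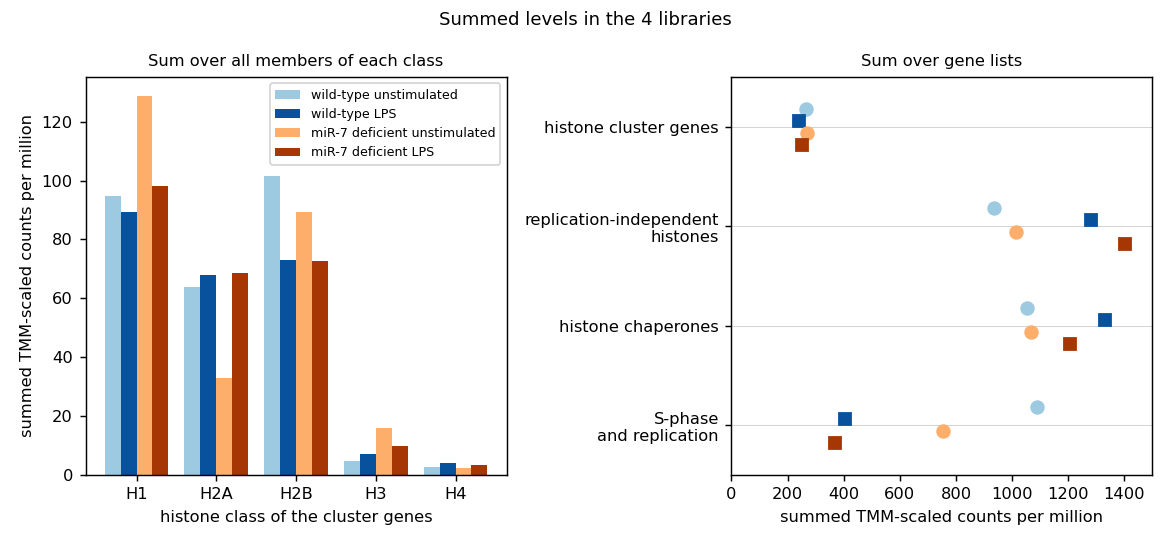
Summed TMM-scaled CPM in the 4 libraries: left, bars for all members of each histone class (H1, H2A, H2B, H3, H4); right, points for all histone cluster genes and for the lists of replication-independent histones, histone chaperones and S-phase genes. The 4 points of the histone cluster genes lie between 241 and 269, while the S-phase genes run from 370 to 1088 and are lower in both LPS libraries.

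Some members that missed the filter face tested ones. Many H2A and H2B genes lie head to head and share the stretch between their start sites. Hist2h2ac starts 238 bases from Hist2h2be on the other strand, and it had 0, 3, 10 and 20 counts while Hist2h2be had 399, 81, 122 and 49. Hist1h2ac starts 250 bases from Hist1h2bc and had 16, 15, 0 and 2 counts. Hist1h2ae starts 175 bases from Hist1h2bg, and the pseudogene Hist3h2bb-ps, with 5, 0, 3 and 9 counts, starts 172 bases from Hist3h2a.

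The spliced and highly similar H2B genes Hist1h2bq and Hist1h2br had 8, 32, 0 and 7 counts and 20, 27, 7 and 14 counts. Their transcripts share an identical stretch of 1603 bases. Summed, they were at 0.599, 1.78, 0.178 and 0.561 CPM. The log2 LPS ratio of the sum was 1.57 in wild-type cells (interval 0.90 to 2.28) and 1.65 in deficient cells (0.36 to 3.13). Its log2 ratio of deficient to wild-type cells was −1.75 unstimulated (−3.185 to −0.52) and −1.67 after LPS (−2.46 to −0.93). Both genes were below the filter and were not tested.

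Replication-independent histones, whose making is not confined to S phase and which come mostly from ordinary polyadenylated messages, were more abundant. The 13 genes of that list summed to 934, 1280, 1014 and 1403 CPM. Of the 11 tested, edgeR called 2 higher after LPS, 4 lower and 5 neither way, with a median of −0.51. Over all tested genes, 18% were called higher and 16.3% lower. H3f3b, a gene of the replacement histone H3.3, had 248, 593, 337 and 664 CPM and rose (1.12 ± 0.20, edgeR adjusted p = 0.00770), while H3f3a, the other H3.3 gene, had 282, 331, 311 and 384 CPM and was not called. H2afz, the gene of H2A.Z, had 139, 52.9, 131 and 62.1 CPM and fell (−1.23 ± 0.19, edgeR adjusted p = 0.00446). Cenpa, the histone H3 of centromeres, had 24.8, 2.81, 17.7 and 0.614 CPM and fell (−3.91 ± 0.46, edgeR adjusted p = 0.00158). H1f0, a replacement linker histone, had 51.4, 38.9, 44.6 and 47.1 CPM and was not called.

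Most genes of the S-phase list fell after LPS. Of its 30 genes, edgeR called 23 lower and the other 7 neither way, with a median of −1.75. Over all tested genes, 16.3% were called lower. Rrm2, a subunit of ribonucleotide reductase, had 34.7, 0.392, 20.1 and 1.04 CPM (−5.23 ± 0.55, edgeR adjusted p = 0.00107). Pcna, the sliding clamp of DNA polymerase, had 382, 171, 255 and 142 CPM (−1.002 ± 0.19, edgeR adjusted p = 0.0102). The list summed to 1088, 406, 755 and 370 CPM. Hist1h1c and Hist1h2bc were not called, but with total counts they were called lower, at −0.65 (edgeR adjusted p = 0.0336) and −0.73 (adjusted p = 0.0249). The same scaling moved the S-phase list to 26 genes called lower. The difference between the lists was not tested.

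Of 22 tested genes of histone mRNA 3′ end processing and polyadenylation, 1 was called higher after LPS, 1 lower and 20 neither way, with a median of −0.09, where 18% and 16.3% of all genes were called. With total counts 0 were higher and 6 lower. Cpsf2, which belongs to the cleavage complexes of both histone and ordinary messages, had 54.4, 94.4, 48.8 and 87.3 CPM and rose (0.82 ± 0.18, edgeR adjusted p = 0.0169). Ncbp2, the small subunit of the cap-binding complex, had 26.8, 15.2, 25.4 and 16.0 CPM and fell (−0.74 ± 0.21, edgeR adjusted p = 0.0369). Slbp had 16.7, 25.5, 24.3 and 15.7 CPM, higher after LPS in wild-type and lower in deficient cells (fitted effect −0.01 ± 0.33, edgeR adjusted p = 0.987). Npat, a coactivator of histone gene transcription, had 15.5, 18.3, 15.4 and 10.9 CPM and was not called. Cpsf2, Ncbp2 and Slbp share exonic bases with other genes.

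Among 20 histone chaperones and their partners, 3 were called higher after LPS, 3 lower and 14 neither way, with a median of −0.16. Over all tested genes, 18% were called higher and 16.3% lower. With total counts the split of the chaperones was 3 higher and 10 lower. Daxx, a chaperone of H3.3, had 24.9, 233, 26.9 and 263 CPM and rose (3.26 ± 0.19, edgeR adjusted p = 0.000201). Nap1l1, a chaperone of H2A and H2B, had 146, 97.1, 150 and 75.2 CPM and fell (−0.79 ± 0.20, edgeR adjusted p = 0.0246). Asf1b, a chaperone of H3 and H4 in dividing cells, had 13.9, 2.90, 8.95 and 2.86 CPM and fell (−1.96 ± 0.33, edgeR adjusted p = 0.00611).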

How the data were processed

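RNA of 4 macrophage libraries was measured, 1 per group. Per the series' design text and the submitters' processing notes, the instrument was a HiSeq 2000, with Casava 1.8.2, Cutadapt, TopHat 2.0.13 with Bowtie 2, HTSeq and the build mm8 named as software and genome. Each library's file, as the authors deposited it, holds unnormalized whole-number read counts per gene ID. The sources used here do not give the strand setting, the annotation release or the treatment of multiply placed reads. Of 52550 IDs, 52403 (99.7%) matched GENCODE M21, which supplied names, GRCm38 coordinates and transcripts by ID alone. These coordinates are therefore not those of the authors' alignment. Exonic bases were shared with another gene by 11430 IDs.

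Genes at 1 CPM by total counts in at least 2 libraries (12730) were scaled by TMM (factors 1.15, 0.846, 1.16 and 0.890) and fitted in R 4.3.3 with edgeR 4.0.16 (quasi-likelihood test) in an additive model of genotype and LPS, with Benjamini-Hochberg adjustment over all tested genes and a threshold of 0.05. It has 1 residual degree of freedom and a biological coefficient of variation of 0.247. The SE is the absolute log2 fold change over the root of F. The script was tested on simulated counts. Pair ratios have exact Clopper-Pearson 95% intervals, and differences between LPS effects normal 95% intervals after adding 0.5 counts. Where a count was 0, folds were computed with 3 counts in its place (0.0641 to 0.0905 CPM). Shared sequence is the share of 50-base words of a gene's transcripts, on either strand, found in a transcript of another gene. DESeq2 1.42.0 served as an alternative. The members and gene lists were chosen with earlier results of these data known. All tested members were named. From each list, genes were named from among the 2 most abundant and the 2 with the largest fitted LPS effect. A few histone and S-phase genes were always allowed. Not every gene that met this rule was described above. Papola and Mcm6 (not called for LPS) and H2afv and Clspn (called lower after LPS) were left out. In the list of 3′ end processing 23 of 25 symbols were found. The results of 2 marker lists are not reported here.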

Additional observations from a re-analysis of the deposited data

Results flagged for a closer look

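The LPS effect on Hist2h2aa1 differed between genotypes by 11.27 on the log2 scale (deficient minus wild type, counting interval 7.26 to 15.27), with 0 counts in 1 library. It had 1013, 637, 0 and 1043 counts in wild-type unstimulated, wild-type LPS, deficient unstimulated and deficient LPS cells. The difference was not tested across replicates, since each group had 1 library. All of its 50-base words occur in another gene, and Gm20634, which overlaps it, had 0 counts in the same library.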

How the results depend on the processing

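Choices were changed singly, except that DESeq2's Wald test came with its own size factors and libraries were left out of a model of LPS alone. Members called for LPS (2 higher, 1 lower) became 1 higher and 4 lower with total counts, 0 higher with no filter, 1 higher and 0 lower at 10 CPM or more (6 members fitted), 1 higher without genes that share exonic bases (7 members fitted), and 0 lower in a model of LPS alone. Leaving out each library in turn from that model gave 0 to 1 higher, the 1 being Hist2h2aa1 without the wild-type unstimulated library, and 0 to 0 lower; a lone library is then assumed to vary like the others. The 1 member higher for genotype became 0 with no filter, at 10 CPM or more, without genes that share exonic bases and in a model of genotype alone, and 2 with DESeq2's Wald test. With no filter, the adjusted p was 0.0624 for Hist1h3d, 0.0720 for Hist3h2a and 0.0586 for Hist1h2al, with 22370 genes tested. Beyond 2-fold, LPS in wild-type cells went from 1 lower to 2 with total counts and 0 at 4-fold. LPS in deficient cells went from 2 higher to 1 with total counts and at 4-fold, and from 1 lower to 2 with total counts and at 1.5-fold and 0 at 4-fold. At 4-fold, genotype went from 2 lower to 1 unstimulated and from 2 higher to 1 after LPS, and at 1.5-fold from 0 lower to 1 after LPS.

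For the summed level, the LPS ratio in wild-type cells (−0.15) was −0.59 with total counts and −0.24 without overlapping members. In deficient cells (−0.09) it was −0.040 with DESeq2 size factors, −0.47 with total counts, −0.32 without overlapping members, −0.23 without the Hist2h2aa and Hist2h3c copies, −0.25 without members that share 50% or more, and reversed to 0.14 without Hist1h1c. The unstimulated genotype ratio (0.01) reversed to −0.029 with size factors and −0.29 without Hist1h1c, and was 0.15 without overlapping members, 0.15 without the copies and 0.13 without members that share 50% or more. The genotype ratio after LPS (0.07) was 0.14 with total counts. With total counts, the 3′ end processing list had 0 higher and 6 lower, and the chaperones 10 lower. The removal of copies and of sharing members, the summing of near-identical copies, and other scalings of the lists were chosen after seeing the data. The cause of these changes was not tested beyond the smaller sets fitted. No paired analysis was possible because the labels give no replicate numbers and each group has 1 library. Depth limits the 58 members below the filter, of which 48 had under 40 counts in all.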
